A study of Homo sapiens with 3 samples.

Results

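Interferon-stimulated genes were followed gene by gene in Cal62 cells, a human thyroid cancer line, after silencing of ADAR1. The set held 50 genes out of 58333 in the gene table. It was taken by symbol from genes that interferon is known to induce, leaving out the OAS, RIG-I-like, IRF and MHC genes. All 50 were found in the table, and 48 of them passed a filter on low values and were tested among 20858 genes. Cells were transfected with a control siRNA (siControl), with siADAR1 #1 or with siADAR1 #2, all with the same lipid reagent. The siRNAs against ADAR1 were set beside siControl to ask what loss of ADAR1 does to gene expression. Poly(A)+ RNA was sequenced from 2 biological replicates of each transfection, which gave 6 libraries. All libraries came from 1 cell line, and none came from cells without a transfection. The question that the replicate numbers add is whether the interferon-stimulated genes moved alike in replicate 1 and in replicate 2, so each siRNA was compared with siControl within a replicate number as well as across the replicates.

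Type I interferons bind the receptor chains IFNAR1 and IFNAR2, which act through the kinases JAK1 and TYK2 to assemble a transcription factor complex that holds STAT2 and IRF9. That complex binds the interferon-stimulated response element, a promoter element with repeated GAAA, and switches on genes whose products block viral RNA, viral entry and translation. ADAR1 converts adenosine to inosine in double-stranded RNA, which keeps cellular RNA from being sensed as viral, and its longer isoform is itself induced by interferon.

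The response element could be looked for in the promoters of most of the set, and the sites below are shown because most of the promoters searched hold such a site. The set was chosen as genes that interferon is known to induce, and the element is a known route of that induction. A high share of promoters with the element thus follows in part from the choice and is no independent result. Promoter windows of 250 bases before and 50 bases after the start, from RefSeq on GRCh38.p14, were found for 42 of the 50 genes. GAAA, 2 bases of any kind and GAAA again, on either strand, stood in the windows of 30 of these 42 genes (71.4%), against 1195 of 27305 symbols in the whole promoter table (4.38%). The stricter form, in which CT follows this core, stood in 18 of 42 (42.9%) against 88 of 27305 (0.322%). Every match to the stricter form is also a match to the core. Capitals mark the core and small letters the flanks, each printed from 5′ to 3′ on the strand that carries the GAAA. Distances are from the start of the gene to the core base farthest upstream of it. The cores are those of ISG15 (chr1:1013390-1013399, plus strand, 107 bases upstream), IFIT1 (chr10:89392507-89392516, minus strand, 116 bases upstream), IFI6 (chr1:27672298-27672307, minus strand, 115 bases upstream), RSAD2 (chr2:6877632-6877641, minus strand, 145 bases upstream), DDX60 (chr4:168318796-168318805, minus strand, 53 bases upstream), IFITM3 (chr11:320886-320895, minus strand, 35 bases upstream) and LGALS3BP (chr17:78979972-78979981, minus strand, 58 bases upstream). GBP1 (chr1:89065326-89065335, plus strand) and GBP3 (chr1:89022855-89022864, plus strand) are neighbours, and PARP9 and DTX3L are divergent genes whose windows share 1 core (chr3:122564332-122564341, plus strand).
ISG15: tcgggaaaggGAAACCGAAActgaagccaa
IFIT1: accgaaagggGAAAGTGAAActaaagctag
IFI6: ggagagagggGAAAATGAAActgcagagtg
RSAD2: ttccacatgtGAAACTGAAAgttgaaacag
DDX60: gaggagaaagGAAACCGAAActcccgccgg
IFITM3: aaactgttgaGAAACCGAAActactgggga
LGALS3BP: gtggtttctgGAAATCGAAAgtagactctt
GBP1: agagtaatatGAAACTGAAAgtacttcgtt
GBP3: agagcctaatGAAACTGAAAgtacttcttt
PARP9 and DTX3L: ccagggaagcGAAACTGAAActttgcgccc

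The 12 genes whose window lacked the core were IFI35, IFI16, HERC6, XAF1, SAMD9L, STAT2, CMPK2, TRIM25, UBE2L6, SP110, HELZ2 and CXCL11. Among genes tested, the median log2FC with siADAR1 #2 was 1.33 for the 29 with the core and 1.53 for the 11 without it. With siADAR1 #1 these medians were 0.62 and 0.68. For the stricter form the order was the other way, with medians of 1.86 for 18 genes with it and 1.07 for 22 without it with siADAR1 #2, and of 0.77 and 0.47 with siADAR1 #1. A match is a description of letters in a window and no evidence of binding.

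Reads on genes numbered 30114840 in the shallowest library and 50029763 in the deepest. ADAR, the targeted gene, gave 10906 and 11701 normalized counts in the siControl libraries of replicates 1 and 2, 1328 and 2246 with siADAR1 #1, and 1663 and 2928 with siADAR1 #2. Every siADAR1 library was below both siControl libraries, with a log2FC of -2.71 ± 0.30 (SE, adjusted p-value 0.00295, limma) for siADAR1 #1 and -2.35 ± 0.30 (0.00128) for siADAR1 #2, and in both transfections the count was higher in replicate 2 than in replicate 1. Of the thyroid markers, NKX2-1 had no read in any library, which allows up to 2.81 to 4.39 normalized counts, TG stayed at or under 62.4 normalized counts, and PAX8 gave 13927 and 15868 in siControl, 10272 and 15074 with siADAR1 #1, and 2542 and 5484 with siADAR1 #2. PAX8 (log2FC -1.99 ± 0.33, adjusted p-value 0.00354, limma) and FOXE1 (-1.21 ± 0.32, 0.0239) fell with siADAR1 #2. Of the epithelial keratins, KRT8 gave 30769 to 43025 normalized counts, and with siADAR1 #2 KRT18 fell (-0.85 ± 0.13, 0.00271) and KRT19 rose (1.18 ± 0.12, 0.000570). Markers of leukocytes were summed over 6 genes and gave 9.05 and 17.3 TPM in siControl, 21.01 and 26.3 with siADAR1 #1, and 30.2 and 62.2 with siADAR1 #2. Of these 6 markers, CD3E had no read and PTPRC had at most 6.28 normalized counts, while CD14 and CD68 passed the filter. PTPRC had no read in either siADAR1 #2 library. CD68 rose with siADAR1 #2 (log2FC 1.80 ± 0.37, adjusted p-value 0.00880, limma) and gave 60.6 of the 62.2 TPM in siADAR1 #2 replicate 2. CD14 rose with siADAR1 #1 (adjusted p-value 0.0170, limma), from 44.6 and 34.7 normalized counts in siControl to 119 and 113, and was not called with siADAR1 #2 (log2FC -0.57 ± 0.32, 0.221). The part of these markers in the results on the set was not tested. All libraries came from cultures of the Cal62 line, so the sums describe marker RNA and are no count of leukocytes. In bulk RNA, a change in a few cells and a change in all cells cannot be told apart.

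In control cells the set was already expressed, over a wide range of levels. Levels of different genes were compared as TPM, reads per exon length scaled to the same total in each library. The length merges all annotated exons of a gene, used in these cells or not, so the order of genes depends on it. Libraries are scaled differently in TPM and in normalized counts, so differences between libraries are given in normalized counts elsewhere. BST2, which tethers budding virions to the cell surface, stood highest with 240.9 and 373.3 TPM in siControl replicates 1 and 2. IFITM3, which hinders virus fusion, followed with 90.6 and 139.8 TPM, and IFI16, a nuclear DNA sensor, with 81.3 and 122.4 TPM. The ranges of IFITM3 and IFI16 overlapped, so their order was not resolved, while both BST2 values were above all values of the other genes in siControl. By the mean of the siControl libraries, the lowest of the genes tested were RTP4, a chaperone of membrane receptors, with 0.0925 and 0.164 TPM, and TRIM22, with 0.254 and 0.241 TPM. This order was not resolved either, since CMPK2 and RSAD2 were below RTP4 in siControl replicate 1. The place of TRIM22 also rests on its merged length of 12556 bases, against 1501 for RTP4. In siControl, TRIM22 gave 50.1 and 37.7 normalized counts, against 1.09 and 30.6 for CMPK2. The chemokines CXCL10 and CXCL11 were lower still in siControl replicate 1, with 0 reads each. Summed over all 50 genes, the level was 1022 and 1709 TPM in siControl. It was 1155 and 2997 TPM with siADAR1 #1, and 1832 and 5803 TPM with siADAR1 #2. In TPM the sum of siADAR1 #2 replicate 2 was the highest. These sums carry the TPM scaling of each library, so the place of the siADAR1 #1 replicate 1 sum against siControl was not resolved. For BST2, siADAR1 #1 replicate 1 gave 235.0 TPM against 240.9 in siControl replicate 1, but 3376 against 4159 normalized counts.

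**Figure D1:**
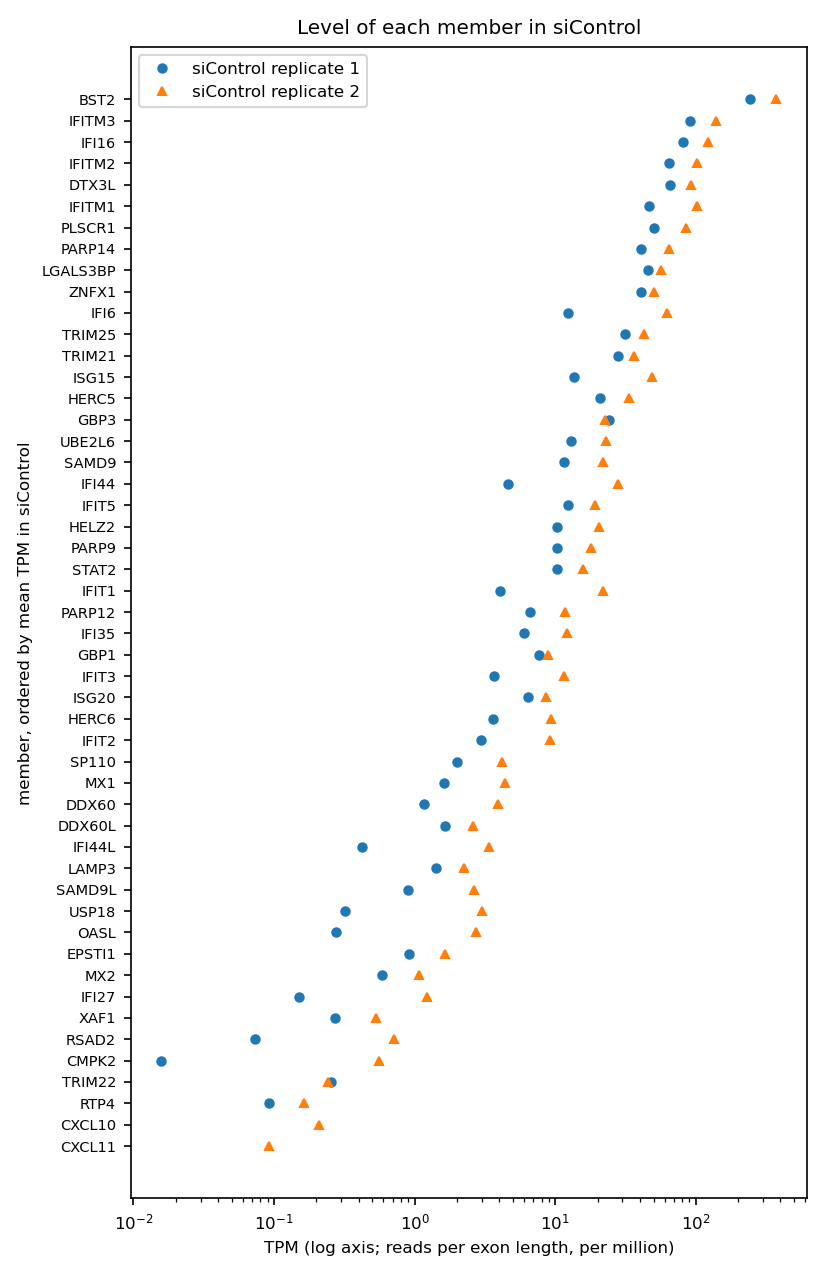
Level of each member in siControl, as TPM on a log axis, with 1 point for each replicate and no point for a library with no read. BST2 is highest at 240.9 and 373.3 TPM, and several genes with a low level, among them IFI27, CMPK2 and RSAD2, lie far apart in the 2 replicates.

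Within replicate 2 the set was higher with either siRNA, whereas within replicate 1 it was not with siADAR1 #1. With siADAR1 #1, the median log2 difference from siControl was 0.12 within replicate 1 and 1.30 within replicate 2, beside -0.06 and 0.00 over all genes tested. With siADAR1 #2 the medians were 0.79 and 2.13, beside -0.04 and -0.01 over all genes tested. Within a replicate number each transfection is 1 library, so these differences have no replicate check and no test.

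In siADAR1 #1 replicate 1, 26 of 48 genes were above siControl and 22 below, while in replicate 2, 47 were above and 1, ZNFX1, was below. Differences upward by more than 0.5 were counted in 16 of 48 genes within replicate 1 (20.7% of all genes tested) and in 41 within replicate 2 (17.8% of all genes). In both replicates at once there were 16 (33.3% of the members and 10.5% of all genes tested). With siADAR1 #2, 28 genes were higher by more than 0.5 within replicate 1 (24.9% of all genes tested) and all 48 within replicate 2 (22.6% of all genes). The same 28 were higher in both replicates, which is 58.3% of the members and 15.2% of all genes tested.

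Some members went down in replicate 1 and up in replicate 2. With siADAR1 #1, 9 genes were lower than siControl by more than 0.5 within replicate 1, namely EPSTI1, HELZ2, IFI16, PLSCR1, ISG20, ZNFX1, GBP3, USP18 and GBP1. That is 18.8% of the members, below the 26.1% of all genes tested that were lower by this much. Of these, EPSTI1, HELZ2, PLSCR1, USP18 and GBP1 were higher by more than 0.5 within replicate 2. With siADAR1 #2 a drop of this size within replicate 1 was seen for 8 genes, GBP1, PARP14, DTX3L, PLSCR1, XAF1, IFIT5, IFITM1 and UBE2L6, and all 8 were higher by more than 0.5 within replicate 2. These 8 were 16.7% of the members, below the 27.3% of all genes tested with such a drop. The difference from siControl was larger in replicate 2 than in replicate 1 for 47 of 48 genes with siADAR1 #1 and for 46 of 48 with siADAR1 #2. Shares of all genes tested are not given for these 2 counts, nor for members lower in replicate 1 and higher in replicate 2. The median over all genes tested was -0.06 within replicate 1 and 0.00 within replicate 2 for siADAR1 #1. For siADAR1 #2 it was -0.04 and -0.01. The comparisons within replicates share the siControl library of each replicate number.

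**Figure D2:**
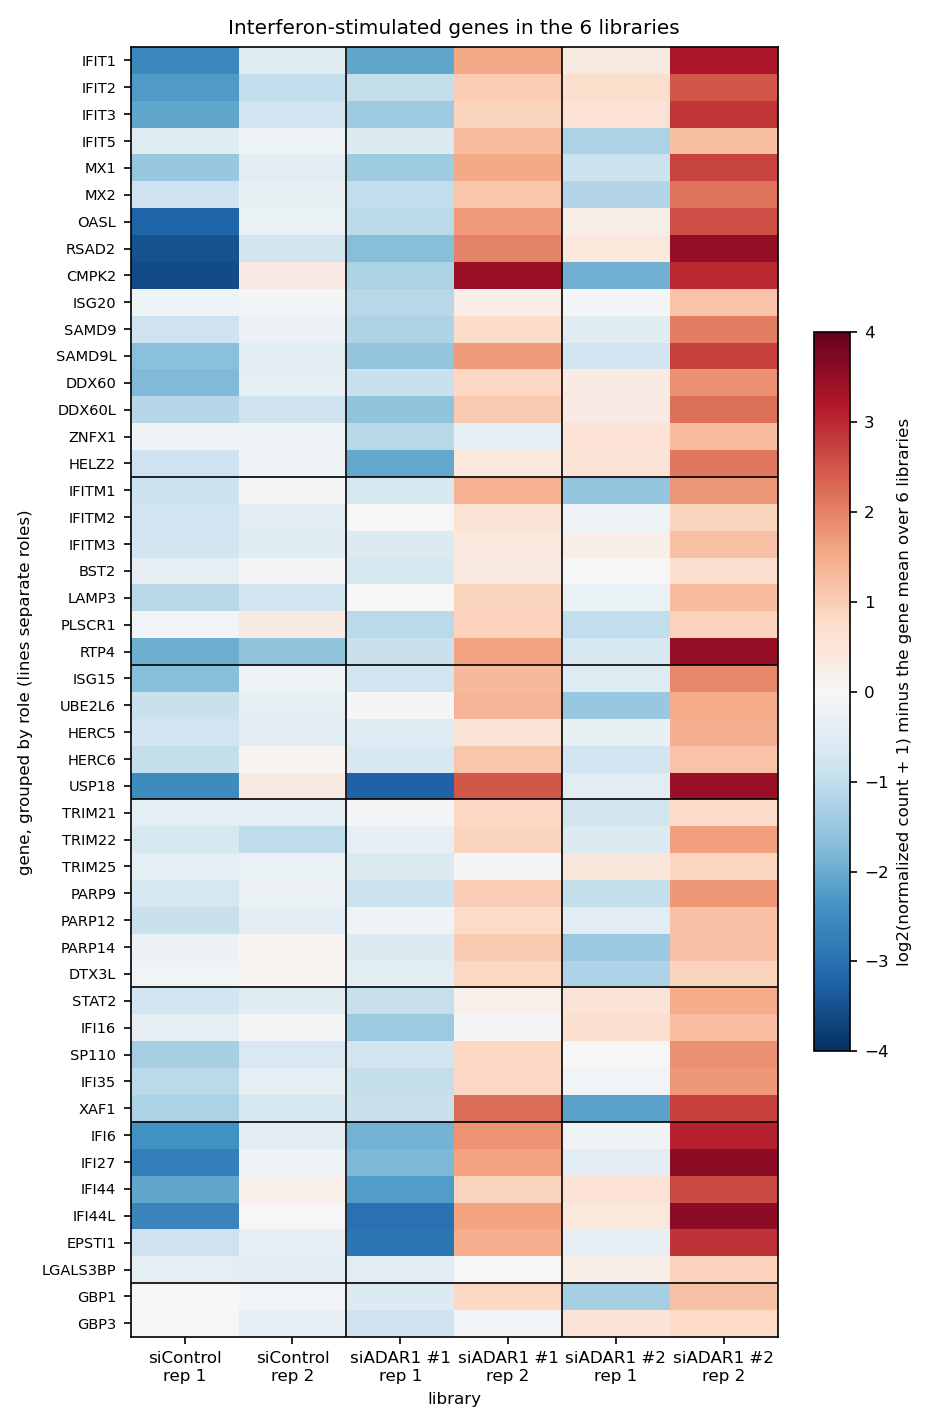
Log2 of the normalized count plus 1 for the 48 members tested, minus the mean of the gene over the 6 libraries, with genes in rows grouped by role and libraries in columns. The column of siADAR1 #2 replicate 2 is the darkest red, and it holds the highest value of 45 genes, while the lowest value lies in siControl replicate 1 for 21 genes and in siADAR1 #1 replicate 1 for 15.

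**Figure D3:**
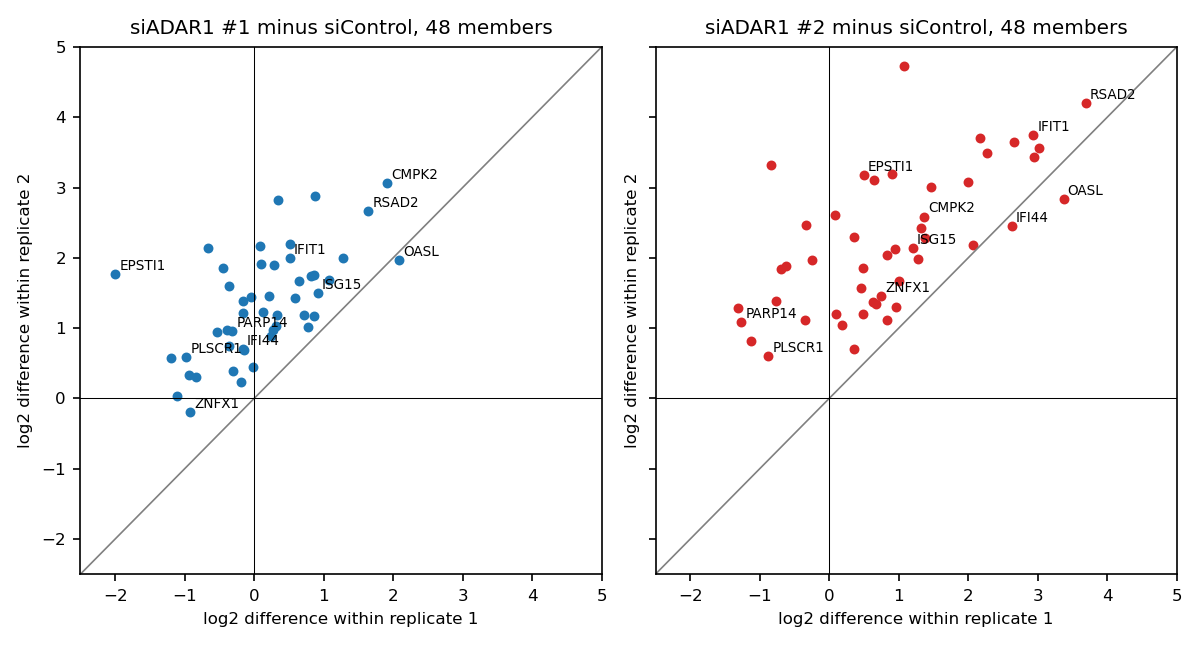
Log2 difference from siControl within replicate 1 (x axis) and within replicate 2 (y axis), 1 point for each of 48 members, for siADAR1 #1 (left) and siADAR1 #2 (right), with a grey line of equal differences. Points lie above the line for 47 genes on the left and 46 on the right.

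Tested across the replicates, no member was called with siADAR1 #1 and 8 were called with siADAR1 #2. A gene was called when its adjusted p-value was under 0.05 and its log2FC beyond 0.5 either way. With siADAR1 #1, 0 of 48 members were called in limma and 0 in voom, while 16.8% of all genes tested were called either way. In limma, 2 members had an unadjusted p-value under 0.05, beside 32.6% of all genes tested. The median log2FC of the members was 0.70, beside -0.02 over all genes tested, and 41 were above 0. With siADAR1 #2, IFIT2, IFIT3, IFITM3, STAT2, TRIM25, LGALS3BP, GBP3 and ZNFX1 rose and none fell. That is 16.7% of the members, near the 11.1% of all genes tested that rose. The median log2FC of the members was 1.34, beside -0.01 over all genes tested, and 44 were above 0. Both siADAR1 #2 libraries were above both siControl libraries for 26 of 48 members (32.3% of all genes tested), and both siADAR1 #1 libraries for 8 of 48 (28.4% of all genes).

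With the replicate number as a block, 15 members rose with siADAR1 #1 (7.34% of all genes tested) and 33 with siADAR1 #2 (12.3% of all genes), and none fell. The same shares stand beside the counts with the block that are given by role below. Leaving out 1 library also moved the counts of members called. The share of all genes called in such fits is not given, here or below, so these counts have no background beside them. With siADAR1 #2 the count was 0 without siControl replicate 1, 2 without siControl replicate 2 and 1 without siADAR1 #2 replicate 2, against 24 without siADAR1 #2 replicate 1 and 16 without either library of siADAR1 #1. With siADAR1 #1, the median log2FC became -0.27 and 2 members were called as lower without siADAR1 #1 replicate 2. With the siADAR1 libraries as 1 group, 0 of 48 members were called in limma and 0 in voom, and 3 had an unadjusted p-value under 0.05, where 0.0% of all genes tested were called and 2916 had an unadjusted p-value under 0.05. In that fit the median log2FC of the members was 0.95, and their smallest adjusted p-value was 0.272.

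**Figure D4:**
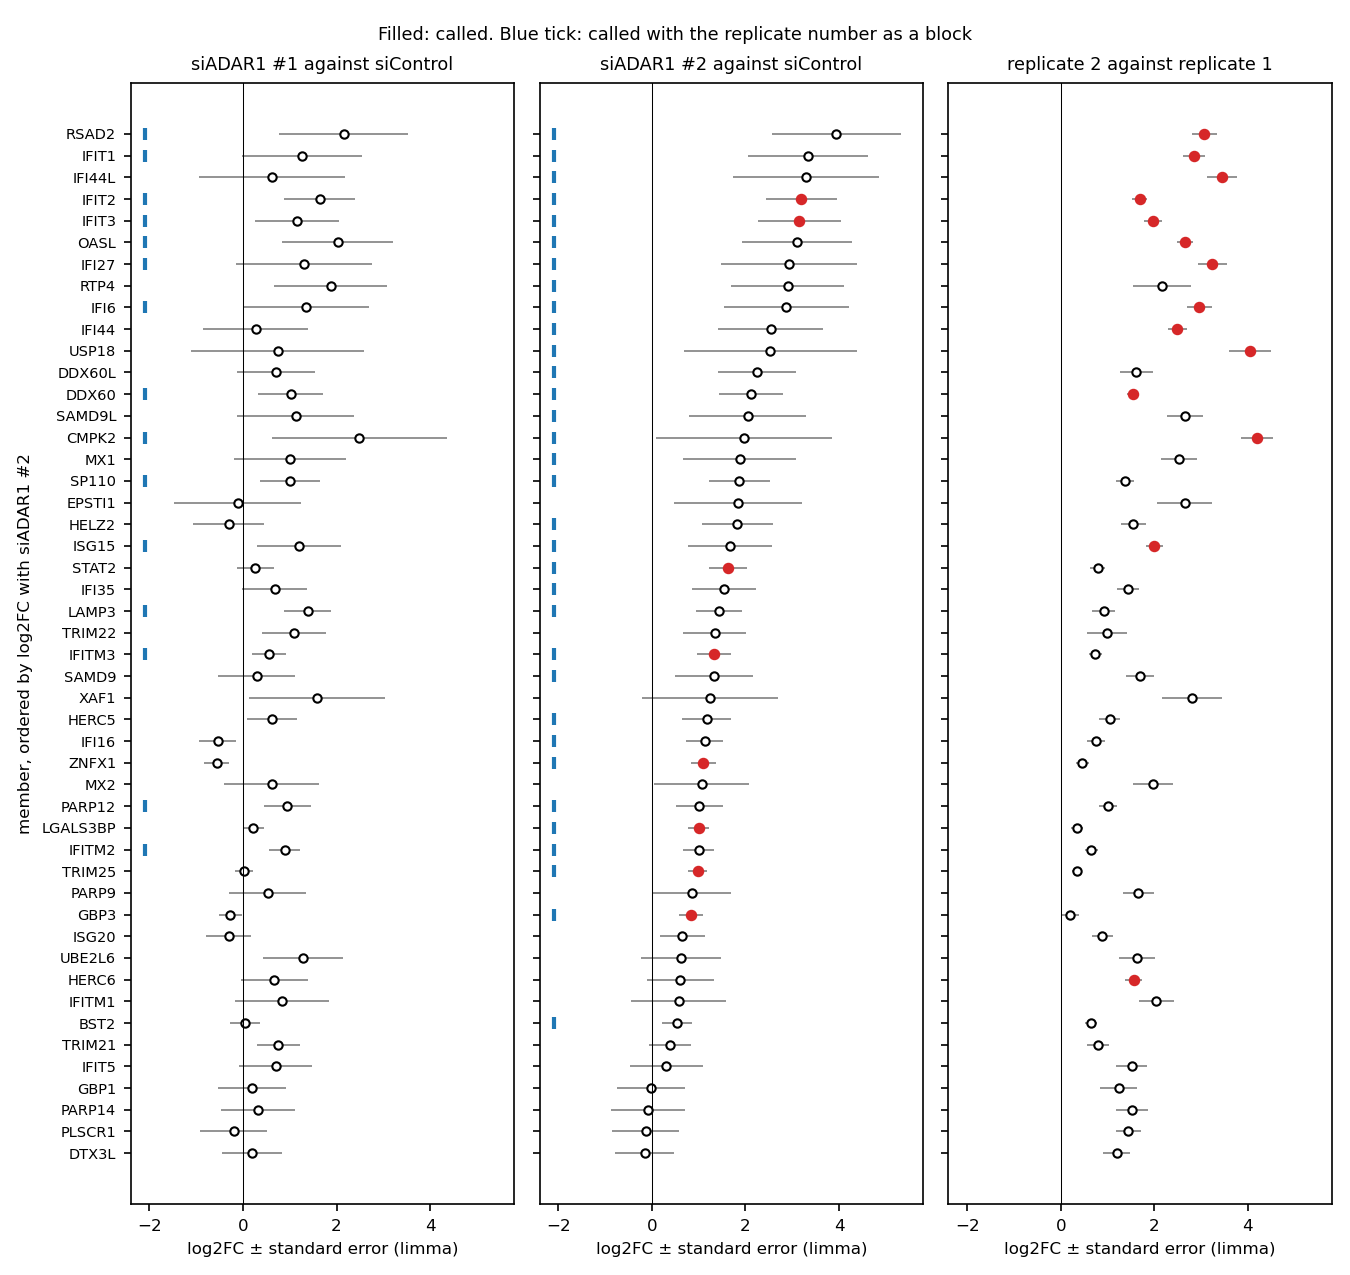
Log2FC ± standard error from limma for the 48 members tested, ordered by the value with siADAR1 #2, against siControl for siADAR1 #1 (left) and siADAR1 #2 (middle), and for replicate 2 against replicate 1 (right), each from 2 libraries per transfection. Filled points are called genes (0, 8 and 14 in the 3 panels), and blue ticks mark the 15 and 33 genes called with the replicate number as a block.

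Effectors against viral RNA and nucleotides were the largest group, with 16 genes tested. Their median log2FC was 1.01 with siADAR1 #1 and 2.01 with siADAR1 #2, and 3 rose with siADAR1 #2. IFIT2 (ENSG00000119922, chr10:89283694-89309271 on GRCh38, plus strand), which binds viral RNA and restrains its translation, gave 203 and 496 normalized counts in siControl replicates 1 and 2, 497 and 1986 with siADAR1 #1, and 1572 and 5408 with siADAR1 #2. Each siADAR1 library was above both siControl libraries, that of siADAR1 #1 replicate 1 by a small margin. The log2FC of IFIT2 was 3.19 ± 0.76 (SE, adjusted p-value 0.0161, limma) with siADAR1 #2 and 1.64 ± 0.76 (0.179, or 0.00141 with the block) with siADAR1 #1.

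IFIT3 (ENSG00000119917, chr10:89327307-89377473, plus strand), a partner of IFIT1 in binding capped viral RNA, gave 292 and 724 normalized counts in siControl, 457 and 2305 with siADAR1 #1, and 1862 and 9102 with siADAR1 #2. Only siADAR1 #1 replicate 1 fell between the siControl values. Its log2FC was 3.16 ± 0.89 (SE, adjusted p-value 0.0318, limma) with siADAR1 #2 and 1.16 ± 0.89 (0.419, or 0.0119 with the block) with siADAR1 #1.

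ZNFX1 (ENSG00000124201, chr20:49237946-49278426, minus strand), a helicase that senses viral RNA, behaved differently with the siRNAs. It gave 5964 and 5910 normalized counts in siControl, 3149 and 5144 with siADAR1 #1, and 10014 and 16193 with siADAR1 #2. The siControl libraries lay close together, both siADAR1 #1 libraries were below them and both siADAR1 #2 libraries were above them. The log2FC was 1.10 ± 0.27 (SE, adjusted p-value 0.0179, limma) with siADAR1 #2 and -0.56 ± 0.27 (0.194) with siADAR1 #1.

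Large differences came with a large spread in IFIT1, MX1 and RSAD2. IFIT1, which binds viral RNA by its end, gave 293 and 1253 normalized counts in siControl, 419 and 5016 with siADAR1 #1, and 2261 and 16846 with siADAR1 #2. Within replicate 1 this was 1.43 times siControl for siADAR1 #1 and 7.72 times for siADAR1 #2, and within replicate 2 it was 4.01 and 13.5 times. The siADAR1 #1 value in replicate 1 was below that of siControl replicate 2, and the log2FC of 1.26 ± 1.28 (SE, adjusted p-value 0.549, limma) was not called, nor was that of 3.34 ± 1.28 (0.0872) with siADAR1 #2. With the replicate block both were called (adjusted p-values 0.0170 and 0.000167, limma).

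MX1, a GTPase that traps viral nucleocapsids, gave 457 and 983 normalized counts in siControl, 492 and 3709 with siADAR1 #1, and 714 and 8510 with siADAR1 #2. In replicate 1 both siADAR1 values lay between the siControl values. In replicate 2 they were 3.77 and 8.66 times siControl, and neither log2FC was called (1.01 ± 1.20, adjusted p-value 0.614, and 1.88 ± 1.20, 0.285, limma), while with the block MX1 rose with siADAR1 #2 (0.0160) and was not called with siADAR1 #1 (0.164).

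RSAD2, known as viperin, makes a nucleotide that ends viral RNA chains. Its normalized counts were 6.53 and 49.98 in siControl, 25.2 and 332 with siADAR1 #1, and 112 and 961 with siADAR1 #2. It had the largest log2FC of the set with siADAR1 #2, 3.94 ± 1.38 (SE, adjusted p-value 0.0657, limma), which was called only with the replicate block (0.000142). CMPK2, a nucleotide kinase encoded beside RSAD2 on the other strand, had the largest with siADAR1 #1, 2.49 ± 1.88 (0.406, or 0.00571 with the block), and rested on few reads, 1 and 30 in siControl, 10 and 218 with siADAR1 #1, and 5 and 134 with siADAR1 #2. The exons of RSAD2 and CMPK2 overlap over 351 bases on opposite strands, so reads there cannot be told apart unless strand was used in counting, which is not given in the sources used here.

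Of the other effectors, the OAS-like protein OASL had the larger difference in replicate 1, with log2 differences of 2.08 and 1.97 for siADAR1 #1 and of 3.37 and 2.84 for siADAR1 #2. HELZ2, a helicase and nuclear co-activator, was lower with siADAR1 #1 in replicate 1 (log2 difference -1.20) and higher in replicate 2 (0.58), while with siADAR1 #2 it was higher in both (1.37 and 2.28). ISG20, an exonuclease, and IFIT5 had the smallest log2FC with siADAR1 #2 in this group, 0.65 ± 0.48 and 0.31 ± 0.78. For MX2, SAMD9, SAMD9L, DDX60 and DDX60L the log2FC ranged over 1.07 to 2.24 in siADAR1 #2 and over 0.29 to 1.13 in siADAR1 #1. With the block, 7 of the 16 effectors rose with siADAR1 #1 and 13 with siADAR1 #2.

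The 7 membrane and entry proteins had medians of 0.83 with siADAR1 #1 and 1.00 with siADAR1 #2, and 1 of them rose. IFITM3 (ENSG00000142089, chr11:319676-329475, minus strand) gave 4039 and 4953 normalized counts in siControl, 4759 and 9190 with siADAR1 #1, and 8073 and 15768 with siADAR1 #2. Both siADAR1 #2 libraries were above both siControl libraries, and the log2FC was 1.33 ± 0.36 (SE, adjusted p-value 0.0273, limma). With siADAR1 #1 it was 0.56 ± 0.36 (0.328, or 0.0465 with the block). In this group 3 genes rose with siADAR1 #1 and 5 with siADAR1 #2 with the block. IFITM1 and IFITM2 lie beside IFITM3 and resemble it in sequence, so reads may have been split among these 3 genes and their values are uncertain.

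BST2, the member with the highest TPM in siControl, gave 4159 and 5121 normalized counts in siControl, 3376 and 6739 with siADAR1 #1, and 5342 and 8345 with siADAR1 #2. It varied less than most of the set, with log2FC values of 0.05 ± 0.32 (SE, adjusted p-value 0.940, limma) with siADAR1 #1 and 0.53 ± 0.32 (0.263, or 0.0355 with the block) with siADAR1 #2. LAMP3, a lysosomal membrane protein, was the member with the smallest adjusted p-value with siADAR1 #1, and gave 83.9 and 105 normalized counts in siControl, 180 and 342 with siADAR1 #1, and 151 and 439 with siADAR1 #2. All 4 siADAR1 libraries were above both siControl libraries, and the log2FC values of 1.38 ± 0.50 (SE, adjusted p-value 0.0955, limma) and 1.43 ± 0.50 (0.0645) were close to each other. With the block both were called (adjusted p-values 0.0140 and 0.00763, limma). PLSCR1, a phospholipid scramblase, was lower in replicate 1 and higher in replicate 2 with either siRNA. RTP4 rested on 2 and 3 reads in siControl, 6 and 29 with siADAR1 #1, and 6 and 94 with siADAR1 #2. In siControl its 2.18 and 3.06 normalized counts were under the 7.62 of the filter. RTP4 passed the filter only through the siADAR1 libraries of replicate 2, with 36.4 and 138 normalized counts. Its place among the genes tested, and among those called with the block with siADAR1 #2, therefore depends on the libraries where it was high.

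ISG15 and the proteins that attach it or remove it were 5 genes, none of which was called with either siRNA. ISG15, a ubiquitin-like modifier, gave 186 and 529 normalized counts in siControl, 353 and 1495 with siADAR1 #1, and 432 and 2330 with siADAR1 #2. Both siADAR1 values were above siControl within each replicate, by 1.90 and 2.32 times in replicate 1 and by 2.82 and 4.40 times in replicate 2, but both in replicate 1 were below siControl replicate 2. The log2FC was 1.20 ± 0.90 (SE, adjusted p-value 0.402, limma) with siADAR1 #1 and 1.67 ± 0.90 (0.207) with siADAR1 #2, and with the replicate block these adjusted p-values were 0.00768 and 0.000996. With the block, 1 of the 5 genes rose with siADAR1 #1 and 3 rose with siADAR1 #2.

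USP18, the protease that removes ISG15 and dampens the interferon receptor, varied most between replicates in this group. Its normalized counts were 20.7 and 153 in siControl, 12.2 and 685 with siADAR1 #1, and 89.6 and 1312 with siADAR1 #2. In replicate 1 siADAR1 #1 was below siControl, and in replicate 2 it was 4.47 times siControl. USP18 was called with siADAR1 #2 with the block (adjusted p-value 0.00888, limma) and not without it (0.350). UBE2L6, the conjugating enzyme for ISG15, was lower with siADAR1 #2 in replicate 1 (log2 difference -0.63) and higher in replicate 2 (1.88), whereas the ligases HERC5 and HERC6 were higher in every siADAR1 library than in siControl of the same replicate.

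Of the 7 TRIM, PARP and DTX3L genes, which encode ubiquitin ligases and ADP-ribosyl transferases, 1 rose. TRIM25 (ENSG00000121060, chr17:56836387-56914080, minus strand), the ligase known for activating RIG-I, gave 6103 and 6620 normalized counts in siControl, 5333 and 7791 with siADAR1 #1, and 10898 and 14394 with siADAR1 #2. Both siADAR1 #2 libraries were above the other 4. The log2FC was 0.98 ± 0.20 (SE, adjusted p-value 0.00850, limma) with siADAR1 #2, the smallest adjusted p-value of the set, and 0.02 ± 0.20 (0.959) with siADAR1 #1. With the block, 1 of the 7 genes rose with siADAR1 #1 and 2 rose with siADAR1 #2.

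PARP14, DTX3L and PARP9 lie near each other on chromosome 3. PARP14 gave 6576 and 8183 normalized counts in siControl, 5274 and 15839 with siADAR1 #1, and 2736 and 17327 with siADAR1 #2. DTX3L, the ligase that partners PARP9, gave 5886 and 6663 in siControl, 4586 and 11216 with siADAR1 #1, and 2690 and 11728 with siADAR1 #2. In both genes siADAR1 #2 gave the lowest library in replicate 1 and the highest in replicate 2, and the log2FC of -0.09 ± 0.79 and -0.16 ± 0.64 averaged over these opposite differences. TRIM22 had little expression, with 50.1 and 37.7 normalized counts in siControl and 53.3 and 243 with siADAR1 #2.

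The 5 signalling and nuclear proteins had medians of 0.68 with siADAR1 #1 and 1.53 with siADAR1 #2. STAT2 (ENSG00000170581, chr12:56341597-56360203, minus strand), the subunit of the interferon-activated complex that carries its activation domain, gave 1492 and 1815 normalized counts in siControl, 1345 and 2912 with siADAR1 #1, and 3618 and 7161 with siADAR1 #2. Both siADAR1 #2 libraries were above the other 4, and the log2FC was 1.63 ± 0.40 (SE, adjusted p-value 0.0177, limma). With siADAR1 #1 it was 0.27 ± 0.40 (0.693), and its libraries lay on either side of siControl. With the block, 1 of the 5 genes rose with siADAR1 #1 and 4 rose with siADAR1 #2.

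IFI16 gave 6751 and 8076 normalized counts in siControl, 3113 and 8234 with siADAR1 #1, and 13172 and 19836 with siADAR1 #2. The siADAR1 #2 libraries were above the other 4, with a log2FC of 1.13 ± 0.40 (SE, adjusted p-value 0.0694, limma), and with the replicate block it was called (0.00665). XAF1, which counters the apoptosis inhibitor XIAP, gave 28.3 and 43.9 normalized counts in siControl, 36.5 and 327 with siADAR1 #1, and 14.7 and 461 with siADAR1 #2, and 38.3% of its exon length overlaps PRAL on the other strand. Overlaps with other annotated genes also covered 31.6% of the exon length of IFITM1, 23.1% of IFI6, 19.4% of SP110, 16.3% of IFITM3 and 13.6% of IFIT2.

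The IFI group, with EPSTI1 and LGALS3BP, had the largest median with siADAR1 #2, 2.71, against 0.45 with siADAR1 #1, and 1 of 6 genes rose. With the block, 2 rose with siADAR1 #1 and 5 with siADAR1 #2. LGALS3BP (ENSG00000108679, chr17:78971238-78979947, minus strand), a secreted glycoprotein that binds galectins, gave 2441 and 2398 normalized counts in siControl, 2421 and 3279 with siADAR1 #1, and 3892 and 6063 with siADAR1 #2. Both siADAR1 #2 libraries were above the other 4. The log2FC was 1.00 ± 0.22 (SE, adjusted p-value 0.0120, limma), and 0.22 ± 0.22 (0.547) with siADAR1 #1.

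IFI6, a mitochondrial protein that counters apoptosis, gave 182 and 732 normalized counts in siControl, 260.0 and 3355 with siADAR1 #1, and 883 and 8269 with siADAR1 #2. Its log2FC was 1.35 ± 1.34 (SE, adjusted p-value 0.537, limma) and 2.88 ± 1.34 (0.149), and both were called with the block (0.0227 and 0.000518). IFI27, a small hydrophobic protein of the same family, gave 9.80 and 63.2 normalized counts in siControl, 19.6 and 219 with siADAR1 #1, and 52.2 and 854 with siADAR1 #2. It was called only with the block (adjusted p-values 0.0440 and 0.000893, limma). In both genes the siADAR1 #1 library of replicate 1 was below siControl replicate 2, and in IFI27 the siADAR1 #2 library of replicate 1 was too.

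The neighbours IFI44 and IFI44L were about as much higher with siADAR1 #2 in replicate 1 (log2 differences of 2.63 and 3.03) as in replicate 2 (2.45 and 3.57). With siADAR1 #1 they were not higher in replicate 1 (-0.16 and -0.36). EPSTI1 had the lowest difference of the set with siADAR1 #1 in replicate 1, -2.00, from 70.8 normalized counts in siControl to 15.9, and in replicate 2 it went from 101 to 349.

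The GTPases GBP1 and GBP3, whose promoter cores are printed above, lie side by side on chromosome 1 and are best known as targets of interferon gamma. GBP3 (ENSG00000117226, chr1:89006679-89022894, minus strand) gave 1612 and 1204 normalized counts in siControl, 900 and 1486 with siADAR1 #1, and 2260 and 2760 with siADAR1 #2. Its siADAR1 #2 libraries were above the other 4, with a log2FC of 0.84 ± 0.25 (SE, adjusted p-value 0.0392, limma). GBP1 gave 737 and 677 in siControl, 507 and 1300.1 with siADAR1 #1, and 295 and 1663 with siADAR1 #2, so that its siADAR1 libraries lay below siControl in replicate 1 and above it in replicate 2, and its log2FC with siADAR1 #2 was -0.01 ± 0.73 (0.994). With the block, 0 of these genes were called with siADAR1 #1 and 1 rose with siADAR1 #2. GBP1 and GBP3 are close relatives, and reads may have been split between them.

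The chemokines CXCL10 and CXCL11, which attract T cells, did not pass the filter and were not tested. CXCL10 had 0 and 3 reads in siControl, 3 and 30 with siADAR1 #1, and 4 and 17 with siADAR1 #2. CXCL11 had 0 and 2 reads in siControl, 3 and 14 with siADAR1 #1, and 0 and 4 with siADAR1 #2. In both genes the most reads were in replicate 2 of siADAR1 #1, and the siControl libraries were at or under 3 reads.

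Tested against each other, siADAR1 #2 gave higher values than siADAR1 #1 for 6 members, IFI16, STAT2, TRIM25, LGALS3BP, GBP3 and ZNFX1. That is 12.5% of the members, below the 16.7% of all genes tested that were called as higher. The log2 difference was 1.67 ± 0.40 for IFI16 (SE, adjusted p-value 0.0134, limma), 1.66 ± 0.27 for ZNFX1 (0.00246), 1.36 ± 0.40 for STAT2 (0.0295), 1.11 ± 0.25 for GBP3 (0.0108), 0.96 ± 0.20 for TRIM25 (0.00741) and 0.79 ± 0.22 for LGALS3BP (0.0264). In all 6, both siADAR1 #2 libraries were above both siADAR1 #1 libraries. The median difference of the 48 members was 0.87, with 38 above 0, beside 0.00 over all genes tested. With the replicate block, 23 members were called as higher (17.9% of all genes tested). The median turned to -0.15 without siADAR1 #1 replicate 1 and to -0.18 without siADAR1 #2 replicate 2, where 2 members were called as higher and 4 as lower, and the count was 17 without siADAR1 #1 replicate 2 and 12 without siADAR1 #2 replicate 1.

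Replicate 2 was higher than replicate 1 for most of the set in all 3 transfections, the controls included. The median log2 difference was 0.49 in siControl, 1.81 with siADAR1 #1 and 2.13 with siADAR1 #2, and 43 of 48 members were higher in replicate 2 in each of the 3 transfections (14.4% of all genes tested). A difference of more than 0.5 in each of them was found for 23 members, 47.9% of the set and 0.892% of all genes tested. In a limma fit with the transfection and the replicate number, which was added after the values were seen, 14 members were called as higher in replicate 2, or 29.2% of the set, where 0.129% of all genes tested were. These 14 were among 27 such genes in the whole table. The median log2FC of the members was 1.56, beside 0.00 over all genes tested, and all 48 were above 0.

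The 14 were 7 effectors (IFIT1, IFIT2, IFIT3, OASL, RSAD2, CMPK2 and DDX60), the 3 genes ISG15, USP18 and HERC6, and the 4 genes IFI6, IFI27, IFI44 and IFI44L. CMPK2 had the largest value, 4.20 ± 0.35 (SE, adjusted p-value 0.00481, limma), followed by USP18 with 4.05 ± 0.45 (0.0152). For IFIT1 it was 2.85 ± 0.23 (0.00481), since replicate 2 was 4.28 times replicate 1 in siControl, 11.97 times with siADAR1 #1 and 7.45 times with siADAR1 #2. For ISG15, 2.00 ± 0.18 (0.00519) came from 2.84, 4.23 and 5.39 times in the same order. Of the 8 members called with siADAR1 #2, IFIT2 and IFIT3 were also called between replicates, while GBP3 (0.20 ± 0.19, adjusted p-value 0.821), LGALS3BP (0.35 ± 0.13, 0.502) and TRIM25 (0.36 ± 0.10, 0.366) had the 3 smallest differences between replicates. What the replicate number stands for is not given in the sources used here, and the count of 14 became 0 without a filter on low values or without a trend in the variance. It rose without either siControl library and without either siADAR1 #2 library, fits for which the share of all genes called is not given here.

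**Figure D5:**
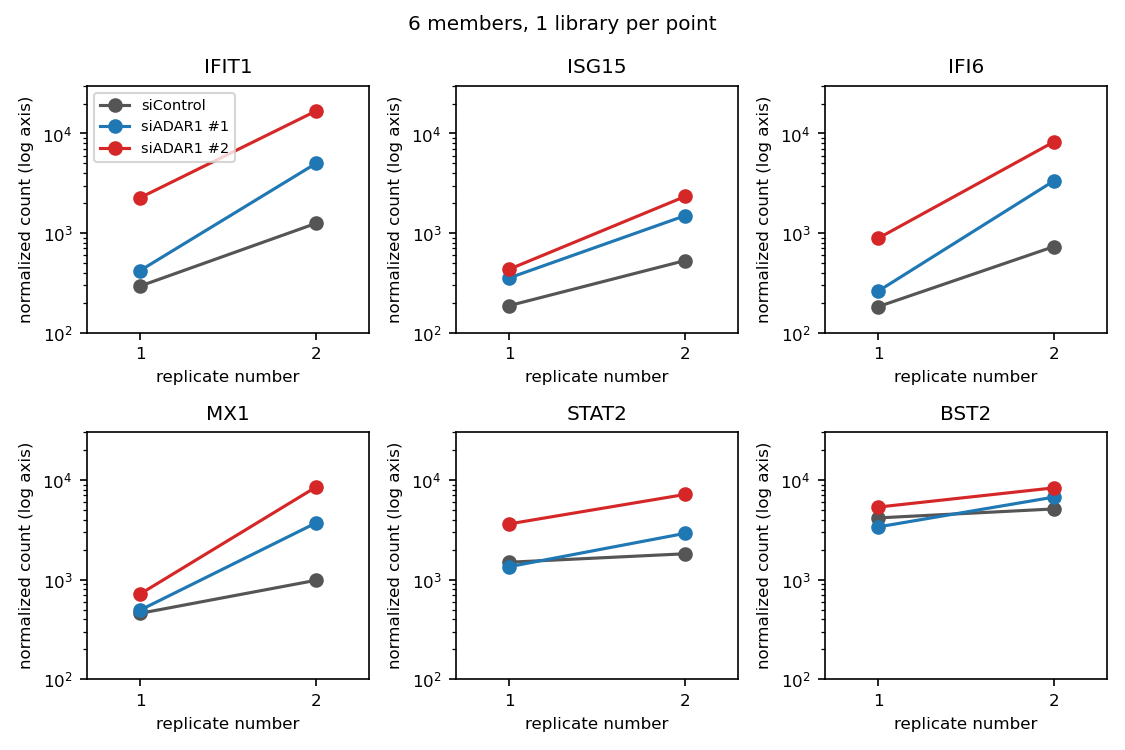
Normalized count, on a log axis, in replicate 1 and replicate 2 for 6 members, with 1 library per point and 1 line for each transfection. All 18 lines end higher in replicate 2, and for MX1 the siADAR1 #2 libraries stand at 714 and 8510 where those of siControl stand at 457 and 983.

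The rest of the interferon pathway was described with a list of 34 other genes, of which 25 were tested. With siADAR1 #1, 5 of the 25 were called and rose, where 6.18% of all genes tested rose and 16.8% were called either way. With siADAR1 #2, 2 rose and 4 fell, a share near the 26.6% of all genes tested that were called either way. With the block, 7 of the 25 rose with siADAR1 #1, where 7.34% of all genes tested rose. With siADAR1 #2, 9 rose and 4 fell with the block, where 12.3% of all genes tested rose. Of the ligands, only IFNE passed the filter and it was not called, while IFNB1, the gene of interferon beta, had 0 and 3 reads in siControl, 1 and 8 with siADAR1 #1, and 1 and 2 with siADAR1 #2. Among the receptor chains, IFNAR2 (log2FC 0.89 ± 0.20, adjusted p-value 0.0212, limma), IFNGR2 (1.02 ± 0.19, 0.0109) and IL10RB (1.65 ± 0.21, 0.00393) rose with siADAR1 #1. With siADAR1 #2, IFNGR1 rose (0.57 ± 0.18, 0.0426), and IFNGR2 (-0.94 ± 0.19, 0.00791) and IFNLR1 (-1.41 ± 0.39, 0.0290) fell.

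The kinase JAK1 fell with siADAR1 #2, from 10664 and 8155 normalized counts in siControl to 4446 and 4980, and gave 9843 and 8411 with siADAR1 #1 (log2FC -0.99 ± 0.16, adjusted p-value 0.00289, and -0.04 ± 0.16, 0.901, limma). The phosphatase PTPN1, which acts on JAK kinases, rose with both siRNAs, by 1.14 ± 0.10 (adjusted p-value 0.00223, limma) and 1.46 ± 0.10 (0.000259). Of the other inhibitors, SOCS3 rose with siADAR1 #1 (1.11 ± 0.24, 0.0179) and PIAS1 fell with siADAR1 #2 (-0.84 ± 0.13, 0.00254). None of these 9 genes was called between the replicates.

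IRF9, the partner of STAT2, was called with siADAR1 #2 with the block (adjusted p-value 0.000159, limma) and was not called with either siRNA without it. It gave 579 and 1243 normalized counts in siControl, 744 and 1906 with siADAR1 #1, and 1719 and 3915 with siADAR1 #2 (adjusted p-values 0.590 and 0.0599, limma), and it was called between replicates (log2FC 1.21, 0.00519). OAS1, OAS2 and DHX58, genes of double-stranded RNA sensing outside the set, were the other 3 genes of the list called between replicates.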

How the data were processed

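The authors prepared poly(A)+ libraries, trimmed adapters, made counts per known gene (featureCounts, bcbio-nextgen) and estimates from Salmon, and normalized with DESeq2, for which their methods prefer the Salmon estimates. The table analysed here goes back to whole read counts. GRCh38, FastQC, featureCounts and Salmon are named in the processing notes of the submitters, without a version. The deposited values are log2 values after a variance-stabilizing transformation, as read from the values: the lowest, 0.347736, is the same in all 6 libraries and stands for a count of 0. Undoing it gave normalized counts and whole reads for 100.0% of the values (tolerance 0.1). Gene names and exon lengths for TPM came from GENCODE release 44 (57830 genes matched, 503 did not), and 0 value columns were left unused.

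Tests on the log2 values used limma 3.58.1 under R 4.3.3 (lmFit, then eBayes with a mean-variance trend, 3 groups sharing 1 estimate of the spread with 3 residual degrees of freedom, two-sided, Benjamini-Hochberg adjustment over the 20858 genes whose mean was at least log2 of 10, which is 7.62 normalized counts on this scale). Calls needed an adjusted p-value below 0.05 together with a log2FC larger than 0.5 in size. Only the fit of siADAR1 #1 against siControl was tried on simulated data, which held no shift between the replicates. The fits with the replicate number were not tried in this way. Where a library was left out and 1 remained in its group, that library was assumed to vary like those of the other groups. A limit from 3 reads covers counting error only, and 2 libraries per group limit the precision.

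The replicate numbers were checked as a pairing. Over 20858 genes, replicate 2 minus replicate 1 in siControl correlated with that in siADAR1 #1 (0.106) and in siADAR1 #2 (0.110), and those of the siADAR1 transfections with each other (0.162). Leaving out the 48 members gave 0.0907, 0.0944 and 0.133. The labels give no meaning to the number, and genes are not independent replicates. The pairing therefore comes from the data, and counts with the replicate number as a block are given for each group of members, and blocked p-values beside most named members whose call they change. The block fits 1 shift between replicates that all transfections share. For the members the median shift was 0.49 in siControl, 1.81 with siADAR1 #1 and 2.13 with siADAR1 #2. Blocked p-values depend on this assumption of a common shift.

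The members, the pathway list and the markers were chosen with earlier results of these data known, and 2 genes of these lists are not reported here. Named were all members called with a siRNA, ISG15, IFIT1, IFI6, MX1, IFI27, STAT2, BST2, CXCL10 and those at the ends of the level order, with ADAR, IRF9, IFNB1 and pathway genes called with a siRNA. Other members named for a difference within a replicate were chosen after their values were seen. Alternatives were other filters (none, and 50), scalings, values, designs and each library left out in turn.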

Additional observations from a re-analysis of the deposited data

Results flagged for a closer look

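The difference between the siRNAs was itself past the test for 6 interferon-stimulated genes, and its cause was not tested. These are 12.5% of the 48 members tested, below the 16.7% of all genes tested that were called as higher. The values, as siADAR1 #2 minus siADAR1 #1 on the log2 scale (limma), were 1.67 for IFI16 (adjusted p-value 0.0134), 1.66 for ZNFX1 (0.00246), 1.36 for STAT2 (0.0295), 1.11 for GBP3 (0.0108), 0.96 for TRIM25 (0.00741) and 0.79 for LGALS3BP (0.0264). Both siADAR1 #2 libraries were above both siADAR1 #1 libraries in each gene. IFI16, GBP3 and ZNFX1 had a log2FC below 0 with siADAR1 #1 (-0.54, -0.27 and -0.56), none of which was called.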

How the results depend on the processing

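With siADAR1 #1, the count of members called (0) became 2 with median-centred libraries, 15 with the replicate block, 2 with 4 libraries only and 0 to 2 with 1 library left out. With siADAR1 #2, the count of 8 became 0 without a filter or without a trend in eBayes, 13 with a filter at log2 of 50 or median-centred libraries, 33 with the replicate block, 16 with 4 libraries only, and 0 to 24 with 1 library left out. Between the siRNAs, 6 became 0 without a filter, 3 without a trend, 23 with the block and 2 to 17 with 1 library left out, with 2 higher and 4 lower without siADAR1 #2 replicate 2. With the siRNAs as 1 group, 0 became 1 with the average of the siRNA changes and 27 with the replicate block as well, a setting added after the values were seen. Between replicates, 14 became 0 without a filter or a trend and 13 to 37 with 1 library left out. Members higher by more than 1 in both replicates were 5 (siADAR1 #1) and 18 (siADAR1 #2), and 18 promoters held the stricter motif. Apart from the main setting and the replicate block for each siRNA or between siRNAs, shares of all genes called are not given here. A change in the members therefore cannot be told from a change in the whole table. The cause of these changes was not tested.

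With 1 library left out, the log2FC with siADAR1 #1 was -0.53 to 3.04 for IFIT1, -0.49 to 3.19 for IFI6, -0.45 to 2.46 for MX1, -0.36 to 2.96 for IFI27, -0.29 to 0.82 for STAT2 and -0.45 to 0.55 for BST2, and the median of the members was -0.27 to 1.67, each lowest without siADAR1 #1 replicate 2 and highest without siADAR1 #1 replicate 1. BST2 was -0.10 without siControl replicate 1. The median between siRNAs was -0.18 (without siADAR1 #2 replicate 2) to 1.79 (without siADAR1 #2 replicate 1), and -0.15 without siADAR1 #1 replicate 1. Median-centring moved the median of all genes with siADAR1 #1 from -0.02 to 0.12. Over the named genes, 269 of the values from settings that kept all libraries stayed on the same side of the threshold, 54 were no longer past it and 11 came past it. Few reads limit CXCL10, CXCL11, RTP4 and CMPK2, and 2 libraries per group limit all tests.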

Other observations

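Outside the interferon lists, 9 genes were called as higher in replicate 2 than in replicate 1: CXCL8, BIRC3, LTB, IRF7, IGFN1, TNFRSF9, CSF2, NLRC5 and RPL22L1. The 4 genes called as lower were RNU1-1, COL4A1, CCN2 and MUC20. They were named after their values were seen, and 31 genes were called in all. CXCL8, BIRC3, LTB, TNFRSF9 and CSF2 encode a chemokine, an inhibitor of cell death, a TNF family ligand, a TNF family receptor and a growth factor of myeloid cells. IRF7 and NLRC5 are themselves known to be induced by interferon.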
